A study of Mus musculus with 12 samples.

Results

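The genes described here encode the proteoglycan brevican (Bcan) and the makers, binders and inducers of the hyaluronan matrix that surrounds the ovulating egg, in mouse ovarian follicles that were either kept fresh or vitrified, that is, cryopreserved without ice crystals. The genes were chosen by symbol, with the result of Bcan in this comparison already known: Bcan, Vcan, Has2, Ptx3, Tnfaip6, Ptgs2, Cd44, Hapln1, Areg and Ereg. Of these 10 genes, 5 are among the 11806 genes of the authors' deposited table (Bcan, Vcan, Cd44, Hapln1 and Ereg), and 3 of the 5 have an adjusted p (Bcan, Vcan and Cd44). Has2, Ptx3, Tnfaip6, Ptgs2 and Areg are not listed, under these symbols or any other symbol that RefSeq gives for them.

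The study sequenced 12 single follicles, 6 fresh and 6 vitrified, from mice of the outbred CD-1 stock aged 16 days. All 12 were enclosed singly in 0.5% alginate and grown for 8 days in medium with 10 mIU/mL recombinant follicle-stimulating hormone, insulin, transferrin, selenium, albumin and fetuin. The labels name no luteinizing hormone, chorionic gonadotropin or EGF-like ligand in that medium, and they do not say which follicles came from the same animal. The p-values therefore measure only the spread between these follicles. The values used here are the authors' comparison of both groups, with 1 pooled total, 1 fold change and 1 p-value per gene, so no level, depth or spread per follicle can be given. The unit of the pooled total is not stated and nearly all totals are not whole numbers, so a total divided by the 12 libraries is a scale for abundance and not a number of reads. The pooled totals had a median of 273 and a minimum of 7.95 in the authors' deposited table.

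Hyaluronan is a long sugar polymer spun out of the cell by membrane synthases, and in the ovary it swells the cumulus cell layer around the oocyte before ovulation. Granulosa cells release the EGF-like ligands amphiregulin (Areg) and epiregulin (Ereg), which act through the EGF receptor on cumulus cells. These cells then switch on the synthase Has2, the prostaglandin synthase Ptgs2 and the cross-linkers Tnfaip6 and Ptx3. Versican (Vcan) and brevican (Bcan) belong to the lecticans, chondroitin sulfate proteoglycans that bind hyaluronan through a link module, and link proteins such as Hapln1 lock them onto the polymer. Cd44 is a cell surface receptor for hyaluronan. Brevican is best known from the matrix around neurons, versican from ovary, vessels and many other tissues.

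The sequences before the starts of both lectican genes are shown because Bcan and Vcan are the members whose values can be compared with useful precision. They are the 250 bases before the RefSeq start (build GRCm38.p6), 5′ to 3′ on the coding strand. Bcan lies at chr3:88000357-88000606 and Vcan at chr13:89742513-89742762, both on the minus strand. Capitals mark matches on either strand to CCAAT, the CCAAT box.
Bcan: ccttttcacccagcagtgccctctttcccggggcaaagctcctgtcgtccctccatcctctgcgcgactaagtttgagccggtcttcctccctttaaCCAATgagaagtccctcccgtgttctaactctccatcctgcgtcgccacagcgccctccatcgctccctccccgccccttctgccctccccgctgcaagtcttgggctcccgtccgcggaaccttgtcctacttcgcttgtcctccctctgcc
Vcan: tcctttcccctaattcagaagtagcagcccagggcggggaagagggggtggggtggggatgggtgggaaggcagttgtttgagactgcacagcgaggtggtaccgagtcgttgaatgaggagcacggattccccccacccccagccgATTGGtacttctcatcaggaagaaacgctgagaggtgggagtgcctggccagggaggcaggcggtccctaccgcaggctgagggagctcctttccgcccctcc

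The Bcan window holds 1 CCAAT match, which begins 153 bases before the start, and the Vcan window holds 1 on the opposite strand, 103 bases before the start. Of 32851 RefSeq promoter windows of this length, 33.8% hold CCAAT on either strand. Neither window holds TGACG, the core of the cAMP response element, which 17.8% of the windows hold. The full element TGACGTCA contains TGACG and is in 1.55% of the windows. Windows were at hand for 8 of the 10 members, all but Has2 and Ereg, and TGACGTCA was found in that of Areg. The GC content was 62.0% for the Bcan window and 62.4% for the Vcan window. These matches describe letters, and no binding was measured.

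Among the listed members, Bcan alone passed the threshold of 0.05 on the adjusted p in the authors' deposited table, and it was higher in vitrified follicles. Vcan, the listed member with the highest total, and the receptor Cd44 did not pass. Hapln1 and Ereg were near the floor of the table and have no adjusted p. So 1 of 3 members was called, while 0.529% of all 10963 tested genes were called, 0.246% as higher and 0.283% as lower. Because Bcan was chosen for this result, nothing is read from that share.

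**Figure D1:**
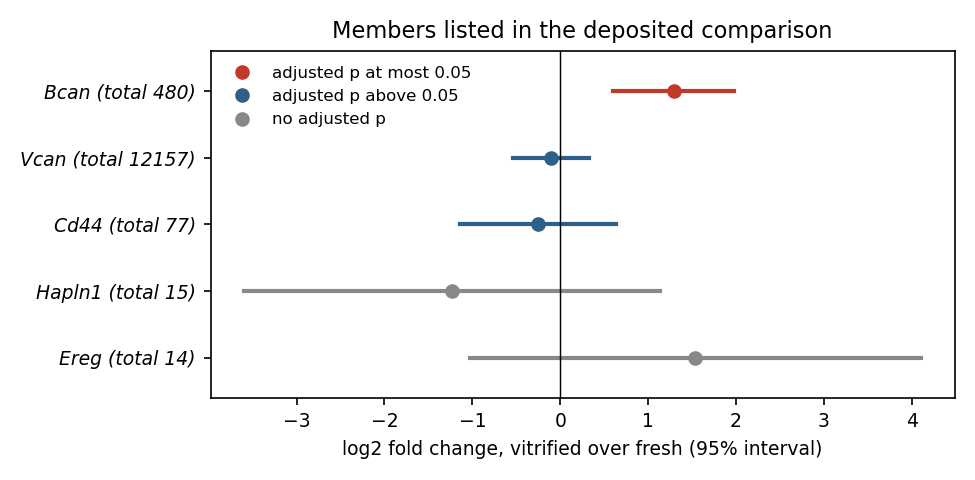
Log2 fold change of vitrified over fresh for the 5 listed members, with 95% intervals as bars and the pooled total beside each name. The interval of Bcan runs from 0.60 to 1.98, those of Vcan, Cd44, Hapln1 and Ereg include 0.

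Bcan (ENSMUSG00000004892.13) lies on chromosome 3 from 87987531 to 88000230 on the minus strand in GENCODE M21, build GRCm38, with 6 transcripts. Its pooled total was 480 in the authors' deposited table, a mean of 40.0 per library over the 12 libraries. Its log2 fold change was 1.29, or 2.45-fold higher in vitrified follicles, and in the authors' deposited table its unadjusted p was 2.3e-04 and its adjusted p 0.045. The 95% interval derived from that p runs from 1.52-fold to 3.95-fold. Of the tested genes, 0.702% had a larger change in either direction. Bcan ranked the seventh by size among the 27 genes called as higher, but 57 by p among all 58 called genes. Just inside the threshold beyond it stood Pgm1, at an adjusted p of 0.048, and just outside stood Rnf141, at 0.052, as listed in the authors' deposited table.

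The error of Bcan was large for its total. On the log2 scale the derived standard error came to 0.35, and 94.4% of the 3567 genes with totals from 300 to 1000 had a smaller one, their median being 0.24. At that error a change of 2.44-fold was needed to reach the p of the last called gene, against the 2.45-fold found. When the normal distribution was replaced by t with 10 degrees of freedom, the adjusted p of Bcan was 0.82, and under Bonferroni adjustment it was 1. Over the alternatives it ranged from 0.038 to 1. None of the 324 windows of 50 bases taken from Bcan transcripts occurs in another gene's transcripts (0%), and no annotated gene overlaps it. In whole follicles, more cells of a type and more RNA per cell cannot be told apart.

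Brevican is a brain proteoglycan, so neural and glial markers were read beside it. Of 12 such markers, 3 are listed and 0 were called. Over all tested genes 0.529% were called, so nothing is read from counts of called markers in sets this small. The receptor phosphatase gene Ptprz1 had a log2 fold change of -0.29 and the intermediate filament gene Nes -0.03 in the authors' deposited table. The astrocyte genes Gfap and Aqp4, the oligodendrocyte genes Olig1, Olig2 and Mbp, the glial genes Sox10 and S100b and the neural matrix genes Ncan and Tnr are not listed. Markers of the other cell types of the follicle held 0 called genes but differed in direction. Theca markers were higher for 6 of 7 tested genes, with log2 fold changes from -0.15 to 2.70, a median of 1.19 and 0 called in the authors' deposited table. Their lowest adjusted p was 0.098, for Aldh1a1, and 3 of the 7 had an unadjusted p under 0.05. All 6 tested oocyte markers were higher, from 0.43 to 1.29, with 0 called (lowest adjusted p = 0.88) in the authors' deposited table. A further listed oocyte marker, Dazl, which encodes a translation regulator of germ cells, has no adjusted p and went the other way in the authors' deposited table, at -2.14 (95% interval -3.56 to -0.73, unadjusted p = 0.0030) on a total of 44.3. Granulosa markers were split, with 4 higher and 3 lower, a median of 0.03 and 0 called in the authors' deposited table. Both tested endothelial markers were lower, Pecam1 at -1.25 and Cdh5 at -1.66, with 0 called, and Kdr, with no adjusted p, stood at -1.42 in the authors' deposited table. Stroma markers had 3 higher and 2 lower values with a median of 0.08, and of 6 immune markers only the lysozyme gene Lyz2 is listed, at -1.05 (adjusted p = 0.67) in the authors' deposited table. The part of these cells in the value of Bcan was not tested.

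None of the listed genes around Bcan was called. With 0.529% of all tested genes called, nothing is read from that count in so small a set. Within 200 kb, 12 of 17 other protein-coding genes are listed, 4 with higher and 8 with lower values, 0 called and -0.02 as the median log2 fold change in the authors' deposited table. The highest was the exonuclease gene Isg20l2 at 0.62, and the lowest Prcc at -1.29, on a total of only 37.9 and with no adjusted p in the authors' deposited table. Nes, 7.08 kb from Bcan, had a log2 fold change of -0.03 with a wide interval of -1.31 to 1.25. The link protein gene Hapln2, 21.5 kb on the other side, is not listed. Isg20l2, Prcc, Iqgap3 and Gpatch4 were named after their values were seen.

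**Figure D2:**
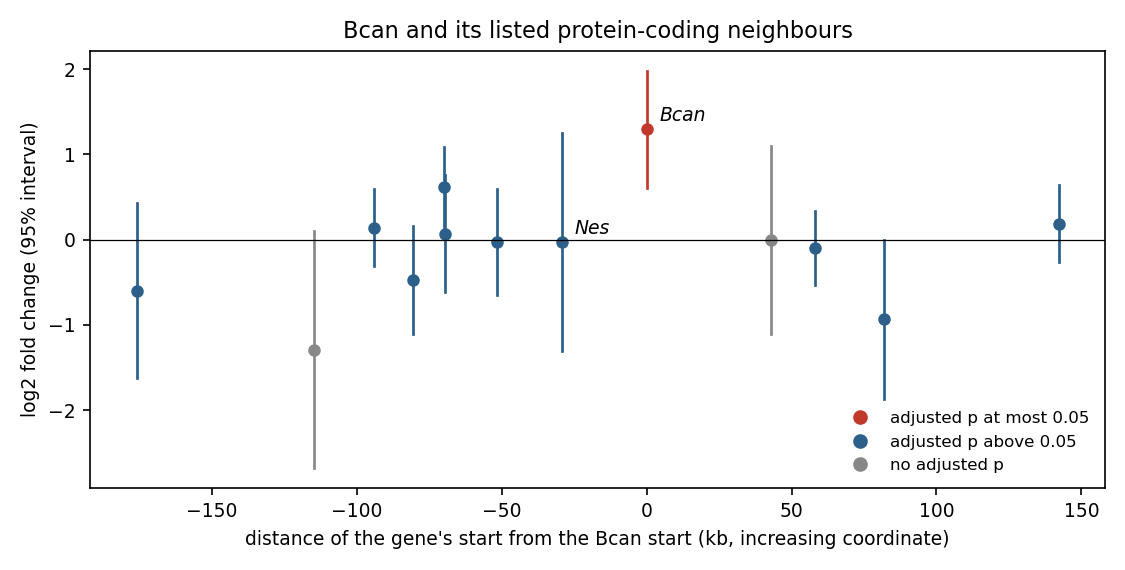
Log2 fold change with 95% interval (vertical axis) against the distance of each listed protein-coding gene's start from the Bcan start (kb). The values of its 12 listed neighbours lie between -1.29 and 0.62. Bcan, chosen for its change, stands at 1.29, and its interval overlaps some of theirs.

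Vcan (ENSMUSG00000021614.16), which spans chromosome 13 from 89655312 to 89742509 with 9 annotated transcripts, had the higher total of the 2 listed lecticans. Its pooled total of 12157 was above those of 98.7% of the listed genes in the authors' deposited table. Per kilobase of annotated exon the total was 841 for Vcan and 118 for Bcan, a level 7.11 times as high over both groups. The log2 fold change of Vcan was -0.10 in the authors' deposited table, where its unadjusted p was 0.64 and its adjusted p 0.999. The 95% interval, from 1.45-fold lower to 1.26-fold higher, does not reach the 2.45-fold of Bcan. A change of 1.76-fold would have been needed for a call. The log2 fold changes of Bcan and Vcan differed by 1.40, given as a description because Bcan was chosen for its change. Versican splice forms differ in their chondroitin sulfate regions, and the table, with 1 value per gene, does not separate them. The antisense gene Gm4117 lies within the span of Vcan and shares 0 exonic bases with it, and its log2 fold change was 0.56 (unadjusted p = 0.20) in the authors' deposited table.

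Cd44 (ENSMUSG00000005087.17, chromosome 2 from 102811141 to 102901665) had a pooled total of 76.7, a mean of 6.39 per library in the authors' deposited table. Per kilobase of exon this is 11.3, so that Bcan stood 10.4 times and Vcan 74.2 times as high. The log2 fold change was -0.25, with an unadjusted p of 0.58 in the authors' deposited table. Its interval, from 2.20-fold lower to 1.55-fold higher, was wide, and a change under 3.14-fold could not have been called.

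The link protein gene Hapln1 (ENSMUSG00000021613.9) lies on chromosome 13 from 89539796 to 89611652, 43.7 kb from Vcan, and the ligand gene Ereg (ENSMUSG00000029377.5) on chromosome 5 from 91074622 to 91093646. Their totals were 14.7 and 13.9, and only 0.0508% and 0.0424% of the listed genes had lower ones in the authors' deposited table. The log2 fold change in the authors' deposited table was -1.23 for Hapln1 (unadjusted p = 0.31, 95% interval -3.59 to 1.13) and 1.54 for Ereg (unadjusted p = 0.24, 95% interval -1.03 to 4.10). Both intervals include 0 and changes beyond 2-fold in either direction. With no adjusted p, neither gene could be called. At their errors, the p of the last called gene would have needed a 21.3-fold change for Hapln1 and a 27.7-fold change for Ereg. Changes of ordinary size were therefore not detectable. Ereg shares 141 exonic bases with the antisense gene Gm19610, and the sources used here do not say whether counting used strand. By level per kilobase the order was Vcan, Bcan, Cd44, Ereg and Hapln1. Ereg at 3.36 and Hapln1 at 2.49 per kilobase rest on totals near the table's minimum, and without values per follicle no spread can be set beside any step of the order.

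**Figure D3:**
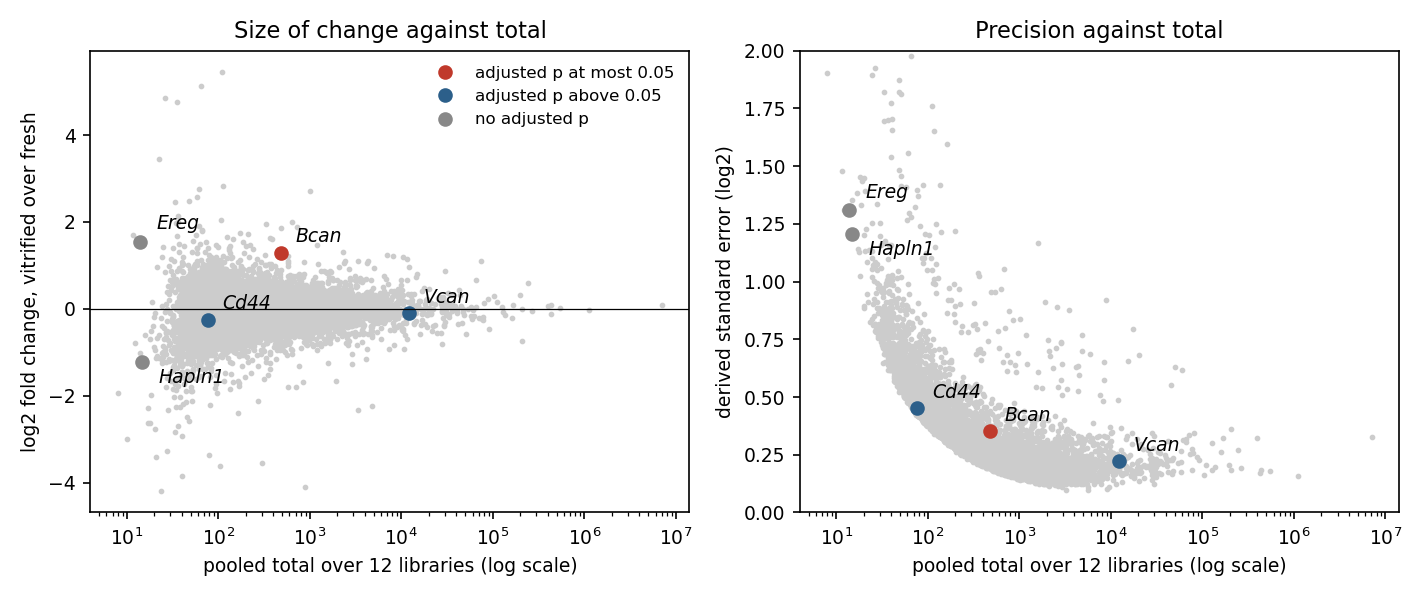
Left, log2 fold change of each gene against its pooled total (log axis), and right, the derived standard error against the same total, for all 11806 genes in light grey with the 5 members labelled (16 genes above 2 on the right axis are not drawn). Bcan, with an error of 0.35, lies toward the upper edge of genes of its total, and Ereg and Hapln1, with errors of 1.31 and 1.21, lie at the lowest totals.

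Of the unlisted members, Has2 makes hyaluronan, Ptgs2 makes the prostaglandin precursor, Tnfaip6 transfers heavy chains onto hyaluronan, Ptx3 holds those chains together and Areg, like Ereg, is a ligand of the EGF receptor. The table holds 47.8% of the 21894 annotated protein-coding genes, and the sources used here do not give its rule for listing a gene. Their level in fresh or vitrified follicles is therefore unknown here, and no fold can be given.

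The rest of the pathway was read from 10 lists ordered by role, without the 10 members. Together they hold 84 tested genes, 39 with higher and 45 with lower values in the authors' deposited table. Their median log2 fold change of -0.02 equalled that of all tested genes to this precision. Of the 84, 1 was called, or 1.19% against 0.529% of all tested genes, and for 52 the 95% interval lay within 2-fold. An unadjusted p under 0.05 was found for 13 of the 84, or 15.5%, against 7.02% of all tested genes.

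That gene was Ust, the sulfotransferase that adds sulfate to uronic acid residues of chondroitin and dermatan sulfate, the chains that lecticans carry. Ust (ENSMUSG00000047712.8, chromosome 10 from 8204756 to 8518825) had a total of 434 and in the authors' deposited table was 1.86-fold higher in vitrified follicles (adjusted p = 0.033). Its log2 fold change was 0.90 (95% interval 0.44 to 1.36). As for Bcan, the call was lost under t with 10 degrees of freedom (adjusted p = 0.81) and under Bonferroni adjustment (adjusted p = 1), in a range from 0.026 to 1 over the alternatives. Of its transcript windows, 0% occur in another gene. Among 15 tested genes of chondroitin sulfate chain synthesis, 9 had higher and 6 lower values in the authors' deposited table, with 1 called and 0.08 as the median log2 fold change. The chain polymerizing factor Chpf stood at 0.40 (adjusted p = 0.30) and the sulfotransferase Chst11 at -0.32 (adjusted p = 0.67) in the authors' deposited table.

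Hyaluronan synthesis and breakdown showed 0 calls among 6 tested genes, whose log2 fold changes ran from -0.37 to 0.26 in the authors' deposited table. The share called over all tested genes was 0.529%, so nothing is read from the count of calls in this or any other single list. The precursor enzyme Ugdh stood at -0.37, the only listed synthase, Has1, at 0.26, and the surface hyaluronidase Cemip2 at 0.10, all in the authors' deposited table. Of the other hyaluronan-binding and link module genes, 4 of 12 are listed, and 0 were called. The hyaluronan-mediated motility receptor Hmmr, also a mitotic spindle protein, had a log2 fold change of -0.90 (adjusted p = 0.33), the scavenger receptor Stab1 a 95% interval of -2.62 to 0.62 (adjusted p = 0.96) and the RNA-binding protein Habp4 a log2 fold change of 0.42 (adjusted p = 0.90) in the authors' deposited table. The lecticans Acan and Ncan and the link protein genes Hapln2, Hapln3 and Hapln4 are not listed.

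Partners of the matrix were split, with 1 of 5 tested genes higher, 4 lower and 0 called in the authors' deposited table. The microfibril gene Fbn1 stood at 0.98 and Fbln1, whose product binds lecticans and their cleaving proteases, at -0.50, each with an adjusted p of 0.34, and the lectican ligand Tnc at -1.06 (adjusted p = 0.86) in the authors' deposited table. The heavy chain gene Itih5 is listed, and Itih1, Itih2, Itih3 and Itih4 are not. Lectican-cleaving proteases and their inhibitors had 3 higher and 6 lower values among 9 tested, with 0 called and a median of -0.23 in the authors' deposited table. Adamts1, the ovulatory versicanase, stood at -0.49 (95% interval -0.88 to -0.10, adjusted p = 0.45), the inhibitor Timp2 at 0.59 (adjusted p = 0.56) and the aggrecanase Adamts4 at -1.65 with a wide interval of -3.63 to 0.33 (adjusted p = 0.85) in the authors' deposited table. Among 14 tested genes of other proteoglycan cores, 10 had higher values, 4 lower and 0 were called, the lowest p being that of the glypican Gpc1 at 0.60 (adjusted p = 0.22) in the authors' deposited table. The syndecan Sdc3 stood at 0.44 and the testican Spock3 at -0.67, the latter with no adjusted p in the authors' deposited table.

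Upstream of the matrix, the 7 tested genes for EGF-like ligands, their sheddases and receptors all had lower values, but within a narrow range of -0.34 to -0.05 and with 0 called in the authors' deposited table. The ligand gene Nrg1, listed with no adjusted p, stood at 0.34 (unadjusted p = 0.57) in the authors' deposited table. The receptor gene Egfr stood at -0.29 (95% interval -0.78 to 0.21), Erbb2 at -0.34 and the feedback inhibitor Errfi1 at -0.14, with adjusted p from 0.976 to 0.999 in the authors' deposited table. Prostaglandin genes had 5 higher and 2 lower values with 0 called and a median of 0.32 in the authors' deposited table, and the receptor gene Ptger1, with no adjusted p, stood at 0.09. The prostaglandin E synthase Ptges, at a total of 4108, stood at 0.33 (-0.05 to 0.70, adjusted p = 0.82), the transporter Slco2a1 at 0.66 (adjusted p = 0.90) and the degrading enzyme Hpgd at 0.32 (adjusted p = 0.98) in the authors' deposited table.

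Ovulatory response genes of granulosa cells had 4 higher and 5 lower values with 0 called in the authors' deposited table. The transcription factor Cebpa stood at -1.13 (adjusted p = 0.47), the G protein regulator Rgs2 at -0.85 (adjusted p = 0.53) and the natriuretic peptide receptor Npr2 at 0.25 (adjusted p = 0.85) in the authors' deposited table. Oocyte factors that enable expansion, with their receptors and SMAD mediators, had 2 higher and 6 lower values with 0 called and a median of -0.40 in the authors' deposited table. The 2 higher were the oocyte factors themselves, Gdf9 at 0.43 (adjusted p = 0.999) and Bmp15 at 0.58 (adjusted p = 0.98) in the authors' deposited table. Both are also counted among the oocyte markers above. The 6 lower were receptor and SMAD genes. The BMP receptor genes Bmpr1b and Bmpr2 stood at -0.63 (adjusted p = 0.33) and -0.51 (adjusted p = 0.63) and Smad3 at -0.43 (adjusted p = 0.72) in the authors' deposited table. The listed cumulus markers, 4 of 5, had 2 higher and 2 lower values with 0 called, the highest being that of the surface glycoprotein gene Cd34 at 0.77 in the authors' deposited table. Their part in the values above was not tested.

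**Figure D4:**
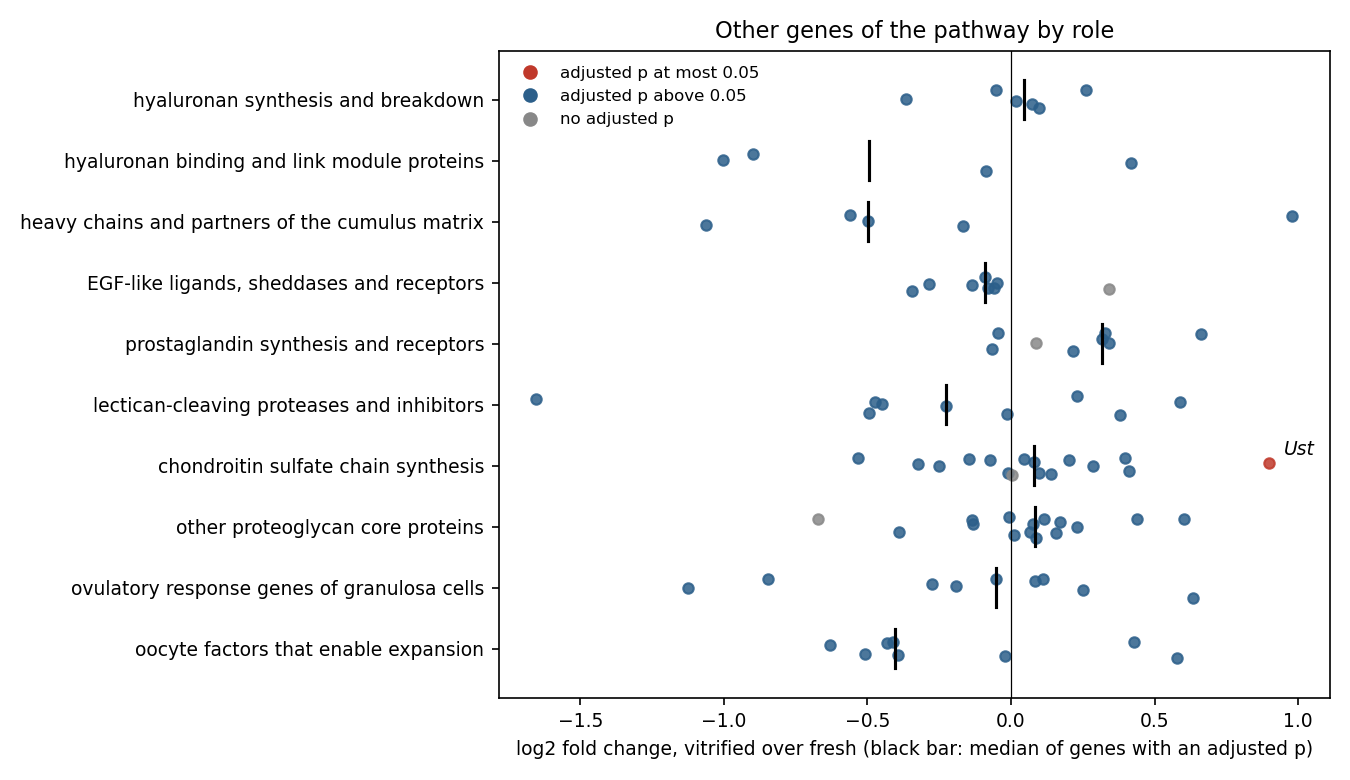
Log2 fold change of each listed gene (points) in the 10 role lists without the members, with the median of each list as a black bar. Ust at 0.90 is the called gene, and the list medians lie between -0.50 and 0.32.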

How the data were processed

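RNA of 12 single follicles was sequenced as Smart-seq libraries, per the labels. Bowtie2, HISAT2, Partek, DESeq2 and the build mm10 are named in the submitters' processing notes, without versions or roles. The counting rule and annotation are not stated there. Per the file headers, the authors deposited a pooled total, a p-value, a step-up adjusted p, a signed fold and a log2 fold change for each gene. Of the totals, 0.237% are whole within 0.001, so no count test was run, although a model of the libraries had been planned for that case. No column per follicle exists in the table used. Statistic, standard error and 95% interval were derived from the deposited log2 fold change and p-value, assuming a two-sided normal test. An adjusted p is missing for 843 genes, with totals up to 59.4, and recomputed Benjamini-Hochberg values differed from the deposited ones by at most 0.598%.

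Genes were called at an adjusted p of 0.05 over all 10963 tested genes. Totals per kilobase used merged exons of GENCODE M21, in which 98.6% of symbols matched, and promoters came from RefSeq. Python 3.11.15, scipy 1.17.1 and pandas 2.3.3 were used, and the steps were tested on simulated data. Members and lists were chosen with earlier results of these data known. In each list, called genes and the 3 of lowest p were named. The older symbol Tmem2 was counted as Cemip2. Some marker genes are not reported here.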

Additional observations from a re-analysis of the deposited data

How the results depend on the processing

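Bcan stayed called, as did Ust, with no filter on totals, with a total of at least 120 and with log2 fold changes centred on their median, a shift of 0.02. With a t distribution of 10 degrees of freedom, 0 members and 0 genes of the wider lists (without the members) were called, and 0 over all genes. At an unadjusted p under 0.05 there were then 1 member and 11 of 84 list genes, or 13.1%, against 4.54% of all tested genes. With Bonferroni adjustment 0 members and 0 list genes were called, and 15 over all genes. The unadjusted counts there stayed at 1 member and 13 list genes. The number of degrees of freedom that suits the authors' test is not known. Only centring altered the log2 fold changes, and Bcan, Vcan, Cd44 and Ust kept their direction there. The other settings left each fold change as deposited, so its direction could not change. Of 21 pairs of a gene and a setting, 17 kept their side of the threshold. The other 4, Bcan and Ust under t with 10 degrees of freedom and under Bonferroni adjustment, lost the call. No paired analysis was possible because the table holds no value per follicle, and leaving out a replicate was not run for the same reason. Among the 5 listed members, Hapln1, Ereg and Cd44 had the lowest totals and the largest derived standard errors.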
